A study of Mus musculus with 30 samples.

Results

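The genes described here are 10 genes of the integrated stress response, *Atf4*, *Ddit3*, *Trib3*, *Chac1*, *Asns*, *Ddit4*, *Psat1*, *Phgdh*, *Slc7a11* and *Sesn2*, out of 55421 genes in a table of bulk RNA-seq counts. Each was found by its Ensembl identifier in the GENCODE M21 annotation (GRCm38), and all 10 were present. *Slc7a11* stayed under a mean CPM (counts scaled to a common library size) of 1, so that 9 of the 10 genes were tested among 14928 tested genes.

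The 30 libraries came from female mouse embryonic stem cells (mESCs) of a 129/Sv × Cast/Ei cross, in which reads over strain polymorphisms can be assigned to the 129 or the Cast allele. The study asked whether loss of a segment of 1 X chromosome is enough to raise expression from the other, as happens when a whole X chromosome is lost. The 17 groups were XX wild type cells, XX Rnf12+/- cells, both XO lines (XCastO129, which keeps the Cast X, and X129OCast, which keeps the 129 X) and 13 lines with a heterozygous deletion on the 129 X chromosome, named Deletion A, B, AB, C, C-G, D, E, F, H, I, I-TEL, J and K. All deletion lines are also Rnf12+/-, so the XX Rnf12+/- cells are their reference and share the loss of 1 copy of *Rlim* (*Rnf12*), an X-linked ubiquitin ligase gene. No treatment was given, and all cells grew in serum and LIF on fibroblast feeders that were depleted by pre-plating before RNA was taken. A single clone was sequenced of Deletions A, AB, B and C-G, and 2 clones of each of the 9 remaining deletion lines. Deletions I-TEL and J were made from another Rnf12+/- founder line, called the second founder here. All deletion lines kept a neomycin resistance cassette and had been selected with Geneticin, which XX Rnf12+/- cells had not, and Deletions AB, C-G and I-TEL and the XO lines are clones in which more of an X chromosome was lost than was targeted. The 2 libraries of a group are clones or numbered replicates. The paper's captions for its bulk RNA-seq plots call the replicates of XX, XCastO129 and deletion cells independent clones. In those plots XX stands for the Rnf12+/- cells, and X129OCast is not shown. The p-values measure the spread between the libraries of a group.

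In the integrated stress response, kinases that sense amino acid shortage, endoplasmic reticulum stress, viral RNA or haem and mitochondrial stress phosphorylate the initiation factor eIF2. General translation then falls, while the mRNA of the transcription factor ATF4 is translated more, and ATF4 with C/EBP partners raises genes of amino acid synthesis, amino acid import and tRNA charging. CHOP (*Ddit3*) and the pseudokinase TRIB3 belong to the later response, and the phosphatase subunits GADD34 and CReP (*Ppp1r15a* and *Ppp1r15b*) reverse the phosphorylation. Because ATF4 is set mainly by translation, the mRNA level of *Atf4* does not give the level of the protein, and no protein was measured in these libraries.

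The C/EBP-ATF composite element, TGATGNAA, is the sequence to which ATF4 and its partners are known to bind, and it was searched on both strands in the RefSeq promoters of the 10 genes (GRCm38.p6, 250 bases before to 50 bases after the start). All 10 genes were matched, and the element was found in the promoters of 4 of them, *Asns*, *Chac1*, *Slc7a11* and *Trib3* (40%). Of all 27025 genes with a promoter 1219 held it (4.51%), and of all 32851 promoters 1304 (3.97%). The windows below show these matches, because they are the places where the promoters of these genes carry the element. They are written along the gene, 5′ to 3′, with the 8 bases of each match in capitals. The matches of *Chac1* and *Trib3* and the match of *Slc7a11* nearer the start are the element read on the other strand.
*Asns*, chr6:7693214-7693243, minus strand, match 23 bases before the start: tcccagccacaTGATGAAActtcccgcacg
*Chac1*, chr2:119351009-119351096, plus strand, match 193 bases before the start: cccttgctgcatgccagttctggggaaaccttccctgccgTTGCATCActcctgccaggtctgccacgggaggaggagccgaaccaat
*Slc7a11*, chr3:50443641-50443691, minus strand, matches 66 and 47 bases before the start: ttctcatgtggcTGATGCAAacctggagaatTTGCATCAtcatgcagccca
*Trib3*, chr2:152344028-152344057, minus strand, match 15 bases after the start: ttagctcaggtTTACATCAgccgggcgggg
The match in *Asns* lies in an exon of that gene in the GENCODE annotation, and those in *Chac1*, *Slc7a11* and *Trib3* lie outside exons, that in *Trib3* because the GENCODE gene starts downstream of the RefSeq start. *Slc7a11* is the only one of the 4 with the element on both strands. No match was found in the promoters of *Atf4*, *Ddit3*, *Ddit4*, *Phgdh*, *Psat1* and *Sesn2*, which says only that these letters are not in this window.

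The libraries fell into 3 series by the library names in the labels. Deletion E formed a series of 6 libraries with XX wild type and XX Rnf12+/-, with 20375194 to 21181405 counts, the other 12 deletion lines formed a series of 20 libraries with 8816184 to 10680026 counts, and the 4 XO libraries, read as single reads, had 14998265 to 16494893 counts. *Rlim* was at 193 to 211 TPM (counts per exon length, scaled to a common total) in XX wild type and at 77.6 to 79.7 TPM in XX Rnf12+/-, the order that the labels give, and at 50.4 to 144 TPM in the deletion lines. It was at 71.2 and 77.8 TPM in XCastO129 but at 3.53 TPM in both libraries of X129OCast, so that X129OCast had almost no *Rlim* RNA. All 7 pluripotency markers were detected in every library. Their summed level was 5370 to 6290 TPM in the series of 6, 4600 to 6440 TPM in the series of 20 and 4210 to 5050 TPM in the XO series. The 9 markers of feeder fibroblasts, none of them at 0 in any library, summed to 68.9 to 335 TPM.

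The levels of the 10 genes ranged widely. *Asns*, *Atf4*, *Ddit4* and *Psat1* were the most abundant, with medians over the 30 libraries of 617, 576, 441 and 424 TPM. *Sesn2* and *Phgdh* followed at medians of 144 and 130 TPM, and *Trib3*, *Chac1* and *Ddit3* at 51.0, 48.2 and 23.2 TPM. *Slc7a11*, the cystine carrier through which many cells take up the precursor of glutathione, was at a median of 0.127 TPM. It had 0 to 39 counts per library, with 39 and 21 counts in XX Rnf12+/-, and 0 in Deletion B and 12 at most in the series of 20 libraries. These levels are too low for any comparison.

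**Figure D1:**
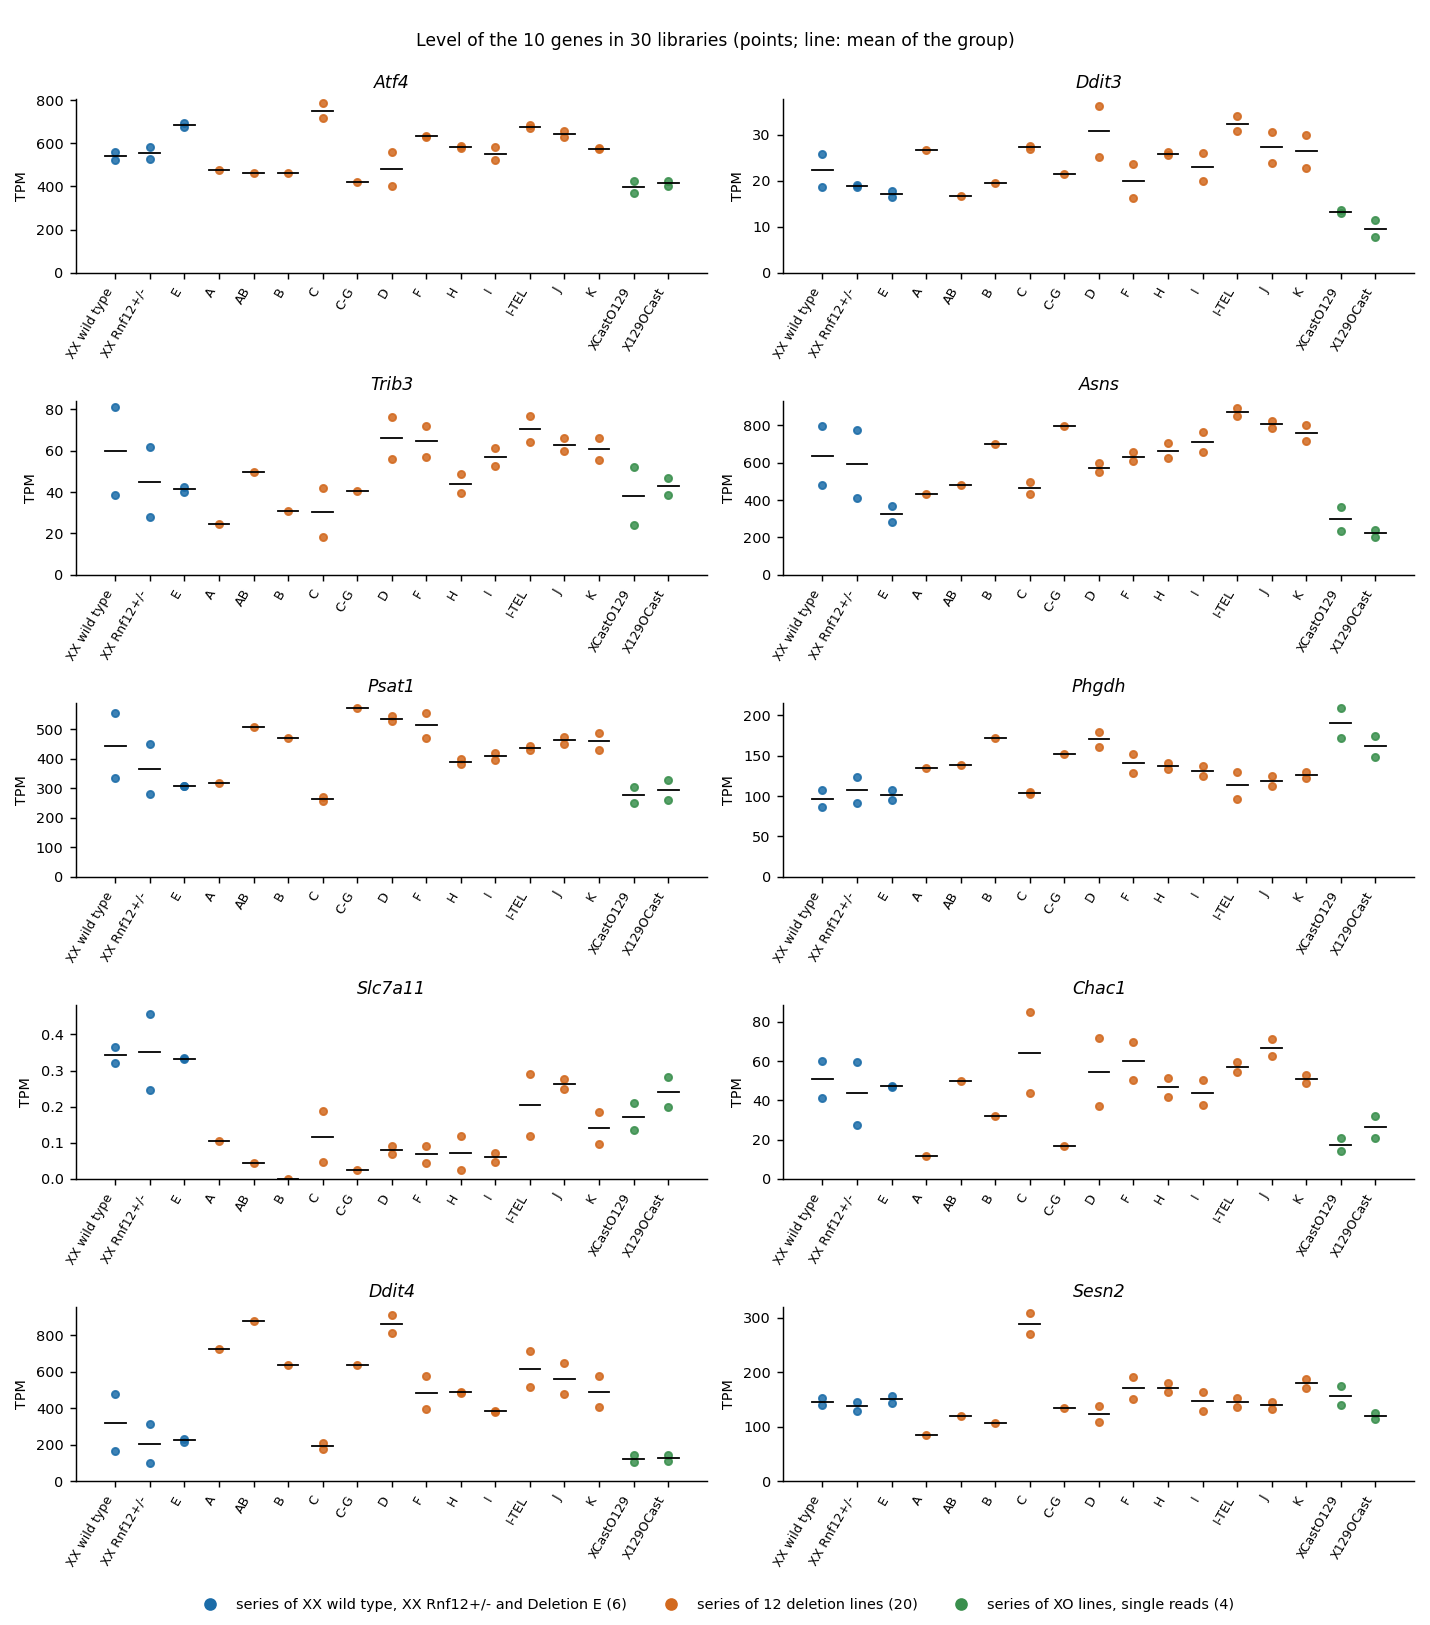
Level of each of the 10 genes in TPM (vertical axes, each starting at 0) in the 30 libraries, shown as points by group along the horizontal axis and coloured by library series, with a line at the mean of each group. *Sesn2* and *Atf4* peak in Deletion C, where *Ddit4* and *Psat1* are lowest among the deletion lines, and *Asns* is lowest in the XO lines and Deletion E.

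Among the regulators, *Atf4* (chr15:80255184-80257541, plus strand) encodes the transcription factor at the centre of the response. It was at 525 and 558 TPM in XX wild type, 529 and 585 TPM in XX Rnf12+/- and 676 and 694 TPM in Deletion E. In XCastO129 it was at 425 and 370 TPM and in X129OCast at 427 and 401 TPM. The series of 20 libraries ranged from 404 TPM (Deletion D, clone 2) through a median of 582 TPM to 786 TPM (Deletion C, clone 2). The highest library was 2.13-fold above the lowest, the narrowest range of the tested genes. In the order of the 17 group means, 4 of 16 steps between neighbours exceeded 1 SD, Deletion C over Deletion E, Deletion F over Deletion H, XX wild type over Deletion A, and Deletion AB over Deletion C-G, and the other neighbours did not differ beyond their spread.

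*Ddit3* (chr10:127290774-127296288, plus strand) encodes CHOP, a transcription factor that is tied to cell death under lasting stress. It had 60 to 276 counts per library and was lowest in the XO lines, at 13.5 and 13.0 TPM in XCastO129 and 11.4 and 7.65 TPM in X129OCast. The series of 20 ranged from 16.3 through 25.8 to 36.3 TPM, and the series of 6 from 16.4 through 18.6 to 25.7 TPM. All 4 XO libraries were therefore below the other 26. In the order of group means, Deletion AB over XCastO129 and XCastO129 over X129OCast were the 2 steps beyond 1 SD.

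*Trib3* (chr2:152337422-152344032, minus strand) encodes a pseudokinase that ATF4 and CHOP induce and that feeds back on both. Libraries of the same group lay far apart, with 18.3 and 42.2 TPM in the clones of Deletion C and 38.5 and 80.9 TPM in the libraries of XX wild type. No step in its order of group means exceeded 1 SD, and no comparison called it.

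Among the genes of amino acid synthesis, *Asns* (chr6:7675169-7693254, minus strand), asparagine synthetase, ranged from 202 TPM (X129OCast) to 896 TPM (Deletion I-TEL). It was at 361 and 236 TPM in XCastO129, 240 and 202 TPM in X129OCast and 368 and 282 TPM in Deletion E, all below the lowest library of the series of 20, which was at 431 TPM. *Psat1* (chr19:15904678-15947337, minus strand) and *Phgdh* (chr3:98313170-98339990, minus strand) encode consecutive enzymes of serine synthesis. *Psat1* ranged from 250 to 572 TPM and was lowest in Deletion C, XCastO129 and X129OCast. *Phgdh* ranged from 86.6 TPM (XX wild type) to 209 TPM (XCastO129). The XO libraries were at 149 to 209 TPM of *Phgdh* and the series of 6 at 86.6 to 124 TPM, with no overlap, so that the first and the next step of serine synthesis were ordered differently over the groups.

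*Chac1* (chr2:119351229-119354381, plus strand) encodes an enzyme that degrades glutathione and is among the most strongly ATF4-driven genes. It was at 11.7 TPM in Deletion A, 14.0 to 31.9 TPM in the XO libraries and 16.8 TPM in Deletion C-G, against a median of 50.3 TPM in the series of 20 and a highest value of 84.8 TPM in clone 2 of Deletion C. *Ddit4* (chr10:59949669-59951834, minus strand), which encodes the mTORC1 inhibitor REDD1 and is also known as a target of hypoxia and glucocorticoids, had the widest range, from 97.8 TPM (XX Rnf12+/-, replicate 1) to 913 TPM (Deletion D, clone 2), 9.33-fold. *Sesn2* (chr4:132492032-132510501, minus strand) encodes sestrin 2, a leucine sensor upstream of mTORC1 that is known as a target of both ATF4 and p53. It ranged from 85.6 TPM in Deletion A to 308 TPM in Deletion C.

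Whether the 12 deletion lines of the series of 20 libraries differed from each other was asked with an F test in edgeR (quasi-likelihood fit over all 30 libraries, Benjamini-Hochberg adjustment over 14928 genes, threshold 0.05), which needs no reference from another series. Of the 9 tested genes, 6 passed: *Sesn2* (adjusted p = 1.56e-05), *Atf4* (0.00109), *Psat1* (0.0130), *Chac1* (0.0191), *Phgdh* (0.0209) and *Ddit4* (0.0357). *Asns*, *Ddit3* and *Trib3* did not (0.0767, 0.109 and 0.131). Over all genes tested, 54.2% passed the same test, so that variation between lines was not particular to these genes. Without both Deletion C clones, 3 of the 9 passed where 37.3% of all genes did, and *Psat1*, *Phgdh* and *Ddit4* no longer passed. With 1 clone left out *Ddit4* did not pass in 8 of 16 fits, *Phgdh* in 3 and *Psat1* in 2.

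Each line was then compared with the mean of the other 11 lines. Of 108 gene and line pairs, 10 passed at an adjusted p under 0.05, 5 higher and 5 lower, and 34 had an unadjusted p under 0.05. The share of all gene and line pairs that passed was 10.4%, close to that of the 9 genes. Without a filter on low counts 48 of 120 pairs passed, and with the 20 libraries of the series alone 25 of 108, where 24504 of 416136 and 21861 of 179136 pairs over all genes did (18542 of 179136 with the filter and all libraries). The test without a filter takes in genes with hardly a read, but of the genes described here it added only *Slc7a11*. Most of the added calls were therefore in genes that were tested in both fits. Over all genes the share of pairs that passed without the filter was lower, at 5.89%. In both of these settings the share of the genes described here lay above that of all genes, and the cause was not tested. The 10 pairs fell in 4 lines, 6 of them in Deletion C, 2 in Deletion A, and 1 each in Deletion D and Deletion I-TEL. In the other 8 lines none of the 9 genes passed, although up to 3 per line had an unadjusted p under 0.05. Of all genes, 0.509% passed in Deletion B, 1.63% in C-G, 1.65% in K, 2.68% in AB, 5.24% in F, 5.88% in H, 9.62% in I and 21.8% in J.

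**Figure D2:**
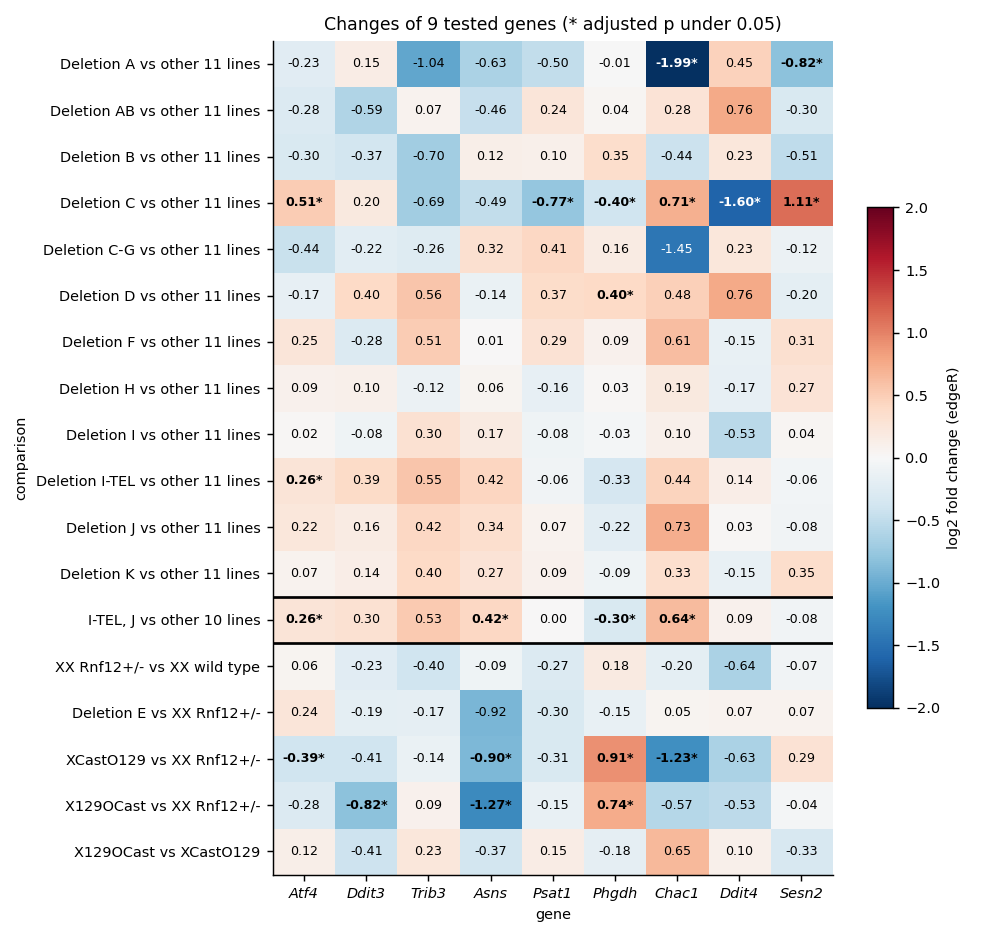
Log2 fold change (edgeR, colour scale from -2 to 2, values printed) of the 9 tested genes (columns) in each comparison (rows), with an asterisk where the adjusted p was under 0.05. Deletion C holds 6 of the 10 asterisks in the upper block of 12 lines, with changes in both directions, and the XO rows share a lower *Asns* and a higher *Phgdh*.

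In Deletion C the genes split. *Sesn2*, *Atf4* and *Chac1* rose, *Ddit4*, *Psat1* and *Phgdh* fell, and *Ddit3*, *Asns* and *Trib3* did not pass the test. *Sesn2* was at 270 and 308 TPM in the clones of Deletion C, against 85.6, 142 and 192 TPM (lowest, median and highest) in the other 18 libraries of the series. Both clones were above all of the others, and the log2 difference was 1.11 (SE 0.099, adjusted p = 1.40e-07). *Atf4* was at 716 and 786 TPM against 404, 579 and 685 TPM, again without overlap, with a log2 difference of 0.51 (SE 0.086, adjusted p = 1.46e-04). *Chac1* was at 43.6 and 84.8 TPM against 11.7, 50.3 and 71.9 TPM. Only clone 2 exceeded the other libraries, and the log2 difference of 0.71 (SE 0.27, adjusted p = 0.0424) came to 0.13 without that clone. The call was lost without the Deletion A library and in 9 of 16 fits with 1 clone left out, most of them clones of other lines.

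*Ddit4* was at 211 and 178 TPM in Deletion C, against 380, 577 and 913 TPM in the other 18 libraries, a log2 difference of -1.60 (SE 0.36, adjusted p = 0.00182). *Psat1* was at 269 and 258 TPM against 317, 459 and 572 TPM, a log2 difference of -0.77 (SE 0.16, adjusted p = 0.00100). For both genes the 2 clones lay below all other libraries of the series. *Phgdh* was at 105 and 102 TPM against 96.7, 134 and 180 TPM, within the range of the others, with a log2 difference of -0.40 (SE 0.12, adjusted p = 0.0162) that lost its call when either clone was left out. The log2 difference of *Asns* was -0.49 (SE 0.19, adjusted p = 0.0528), of *Trib3* -0.69 (SE 0.34, adjusted p = 0.117) and of *Ddit3* 0.20 (SE 0.17, adjusted p = 0.379). In Deletion C, 37.6% of all genes passed, 21.0% higher and 16.6% lower, against 3 and 3 of the 9 genes here. The median of the 9 was -0.40 and that of all genes 0.02 on the log2 scale.

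Both alleles of these autosomal genes changed in the same direction in Deletion C. The ratio of allelic reads, scaled to library size, Deletion C over the other lines, was 2.00 on the 129 allele and 1.91 on the Cast allele for *Sesn2*, and 1.23 and 1.41 for *Atf4*. It was 0.338 and 0.370 for *Ddit4*, 0.601 and 0.554 for *Psat1* and 0.716 and 0.789 for *Phgdh*. It was 0.555 and 0.711 for *Asns* and, with 11 and 19 reads in Deletion C, 1.29 and 2.14 for *Chac1*. The fewest reads behind the ratios of the other genes were 115 on the Cast allele of *Phgdh* in Deletion C. No test was made on the allelic reads.

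Lists of related genes were counted in the same fit, where 21.0% of all genes were called higher and 16.6% lower in Deletion C. Of 13 aminoacyl-tRNA synthetases that the ATF4 programme is known to induce, 12 fell in Deletion C and none rose (median log2 difference -0.46), among them *Wars* at -0.51 (adjusted p = 2.39e-05) and *Aars* at -0.44 (0.00970). *Cars*, at -0.19, was the synthetase that did not pass. Of 16 enzymes of serine, one-carbon, proline and other amino acid metabolism, 8 fell and 0 rose (median -0.37), with *Mthfd2*, of mitochondrial folate metabolism, at -0.64, *Gpt2*, an alanine transaminase, at -0.64 and *Shmt1* at -0.21. Of 11 amino acid carriers, 5 fell and 2 rose, with *Slc7a5*, the light chain of the large neutral amino acid exchanger, at -0.78 (adjusted p = 3.77e-05) and *Slc38a1*, a glutamine carrier, at 0.43 (9.08e-05).

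Most p53 targets and most genes of a list around eIF2 dephosphorylation rose in the same clones, and the other lists held changes in both directions. These counts stand beside 21.0% of all genes called higher and 16.6% called lower, and several of them lie near those shares. Of 13 p53 targets, 9 rose and 0 fell in Deletion C (median 0.47), with *Trp53inp1* at 1.09 (adjusted p = 1.03e-06) and *Eda2r*, an X-linked death receptor gene, at 0.84 (1.98e-05). Of the listed *Ppp1r15a*, *Ppp1r15b*, *Ppp1ca* and *Dnajc3*, 3 of 4 rose and 0 fell, with *Ppp1r15b* at 0.76 and *Ppp1r15a* at 0.57. Of the eIF2 subunits, eIF2B subunits and kinases, 3 of 16 rose and 3 fell, with *Eif2ak2*, the kinase PKR, at 0.75 (adjusted p = 3.82e-05). Of the bZIP factors related to ATF4, 4 of 11 rose and 1 fell, among them *Mafg* at 0.72 and *Atf3* at 0.60. Of the other ATF4-linked genes, 3 of 11 rose and 4 fell, and *Sqstm1*, the autophagy receptor p62, and *Ifrd1* were at 0.95 and 0.73. Of 16 genes of the endoplasmic reticulum chaperones and the other unfolded protein response arms, 6 rose and 3 fell (median 0.02), with *Sel1l* at 0.43. Of 9 NRF2 targets, 4 rose and 2 fell, with *Hmox1*, haem oxygenase 1, at 0.95 and *Gsr* at -0.34. Of 10 hypoxia targets, a list read because of *Ddit4*, 1 rose and 2 fell (median -0.09).

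The feeder markers summed to 128 and 104 TPM in the clones of Deletion C, within the 68.9 to 258 TPM of the series, and 1 of the 9 was called higher and 0 lower. Of the pluripotency markers 3 of 7 were called higher and 0 lower, and of 5 primed epiblast markers 0 were called higher and 2 lower. Of all genes, 21.0% were called higher and 16.6% lower in Deletion C. *Rlim* was at 144 and 107 TPM in Deletion C, the highest of the series. The part of these differences in the changes of the stress response genes was not tested. In bulk RNA, fewer cells that express a gene and less of its RNA per cell cannot be told apart.

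**Figure D3:**
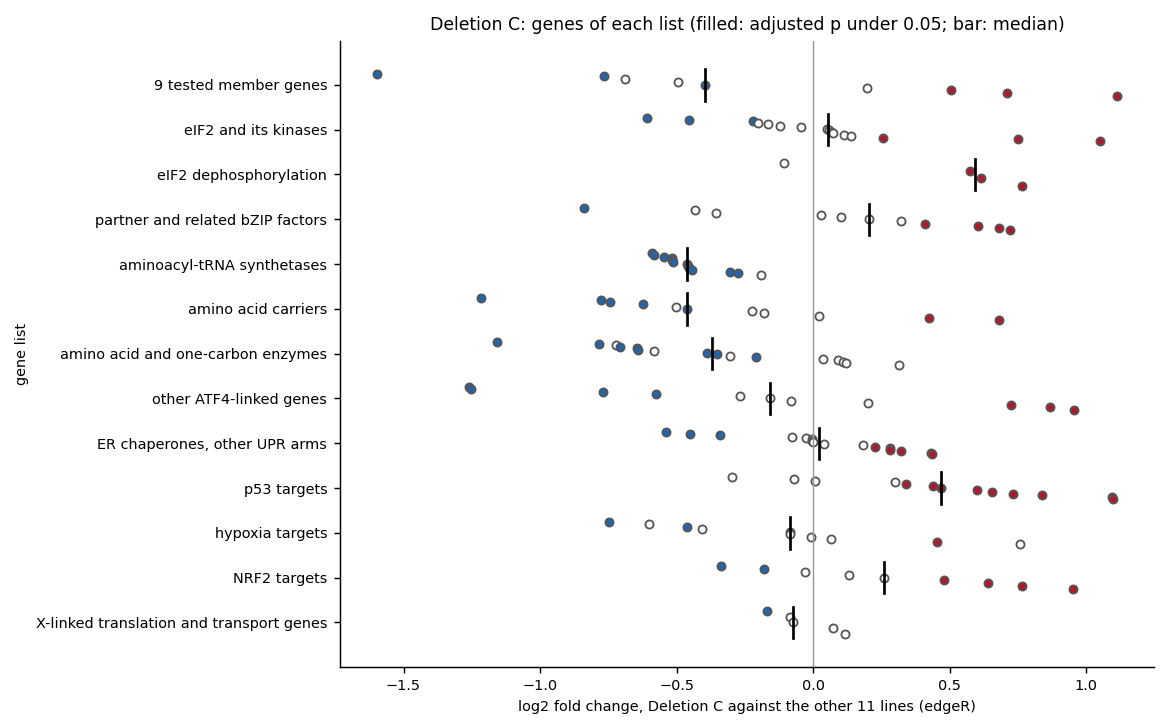
Log2 fold change in Deletion C against the other 11 lines (horizontal axis, edgeR) for each tested gene of the member genes and of the lists named on the vertical axis; filled points passed at an adjusted p under 0.05 and bars mark medians. The aminoacyl-tRNA synthetases lie at or below -0.19 and the p53 targets have a median of 0.47, while the 9 member genes spread from -1.60 to 1.11.

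In Deletion A, sequenced from 1 clone whose spread is assumed to equal that of the other groups, *Chac1* and *Sesn2* fell. *Chac1* was at 11.7 TPM against 16.8, 50.3 and 84.8 TPM (lowest, median and highest) in the other 19 libraries of the series, with a log2 difference of -1.99 (SE 0.51, adjusted p = 0.0270). *Sesn2* was at 85.6 TPM against 106, 151 and 308 TPM, with a log2 difference of -0.82 (SE 0.17, adjusted p = 0.00826). Both values were the lowest of the 20 libraries. *Trib3* (24.6 TPM) and *Asns* (432 TPM) each had only 1 library of the series below them, with log2 differences of -1.04 and -0.63 that did not pass (adjusted p = 0.212 and 0.174). Over all genes, 6.79% passed in Deletion A, 3.02% higher and 3.77% lower. Of the synthetases 4 of 13 fell and 0 rose, *Aars* by 0.61 and *Wars* by 0.45 on the log2 scale, and of the carriers 2 of 11 fell, with *Slc7a5* at -0.68 (adjusted p = 0.0166). *Ppp1r15b* fell by 0.65 and *Ppp1r15a* was higher, at 0.45 (adjusted p = 0.0199). No p53 target fell and 1 rose. The pluripotency markers of this library summed to 4600 TPM, the lowest of the series, with 2 of 7 called lower and 0 higher, and it had the fewest counts, 8816184. The feeder markers summed to 167 TPM with none of 9 called. The part of these in the changes of *Chac1* and *Sesn2* was not tested. Deletion AB, a larger deletion that includes the segment of Deletion A, was also sequenced from 1 clone and had neither call. There *Chac1* was at 49.7 TPM with a log2 difference of 0.28 (SE 0.38) from the other lines. *Sesn2* was at 119 TPM with a log2 difference of -0.30 (SE 0.16). The difference between Deletion A and Deletion AB was not tested.

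The remaining calls within the series were small. *Phgdh* was at 161 and 180 TPM in Deletion D against a median of 132 TPM over the 20 libraries, with a log2 difference of 0.40 (SE 0.11, adjusted p = 0.0267) where 13.4% of all genes passed, 6.55% higher and 6.83% lower. The call was lost without either Deletion D clone or without both Deletion C clones. *Ddit4* in Deletion D, at 811 and 913 TPM among the 3 highest libraries, had a log2 difference of 0.76 (SE 0.29) that did not pass (adjusted p = 0.0873). *Atf4* in Deletion I-TEL, at 670 and 685 TPM, had a log2 difference of 0.26 (SE 0.087, adjusted p = 0.0490) where 17.4% of all genes passed, 9.50% higher and 7.90% lower, and that call was lost in 11 of 16 fits with 1 clone left out.

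Deletion C-G, a larger deletion over several segments that include that of Deletion C, was sequenced from 1 clone and had none of the calls of Deletion C. Its levels were 423 TPM for *Atf4*, 135 TPM for *Sesn2*, 637 TPM for *Ddit4* and 572 TPM for *Psat1*, the last of these the highest of all libraries, and *Chac1* was at 16.8 TPM with a log2 difference of -1.45 (SE 0.47, adjusted p = 0.163). The difference between Deletion C and Deletion C-G was not tested.

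The lines of the second founder, Deletion I-TEL and Deletion J, were compared with the other 10 lines of the series. The deletion of I-TEL includes the segment of Deletion J, which none of the other 10 lines lacks. Founder and loss of that segment therefore cannot be told apart. *Asns*, *Atf4* and *Chac1* were higher and *Phgdh* lower in the lines of the second founder. *Asns* was at 853, 896, 788 and 826 TPM in the 4 libraries of the second founder and at 431, 639 and 801 TPM (lowest, median and highest) in the 16 of the first, a log2 difference of 0.42 (SE 0.14, adjusted p = 0.0222) with 3 of 4 libraries above all of the others. *Atf4* was at 670, 685, 632 and 658 TPM against 404, 576 and 786 TPM, a log2 difference of 0.26 (SE 0.067, adjusted p = 0.00464). *Chac1* differed by 0.64 (SE 0.21, adjusted p = 0.0218) and *Phgdh* by -0.30 (SE 0.092, adjusted p = 0.0145), both with overlapping libraries. The calls of *Asns* and *Chac1* were each lost in 3 of the fits with 1 clone left out and that of *Phgdh* in 2, each time a clone of the second founder, and the call of *Chac1* was lost without the Deletion A library. Over all genes, 35.9% passed, 18.2% higher and 17.6% lower, so that 4 of 9 was not far from the background.

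In the lines of the second founder 7 of the 9 feeder markers were higher and 0 lower, and these markers summed to 140 to 258 TPM, and the part of feeder RNA in these differences was not tested. Genes of chromosome 8 had a median log2 difference of 0.39 in the lines of the second founder, while the median of each chromosome that carries a member gene lay within -0.11 and 0.10 in all comparisons. *Aars* (0.56), *Slc7a5* (0.61), *Eif4ebp1* (0.37), *Hmox1* (0.69) and *Gsr* (0.52), all on chromosome 8, were higher in these lines, as was *Wars* (0.40), on chromosome 12. Of the 13 synthetases 2 were higher and 1 lower (median -0.07), and of the 16 amino acid enzymes 0 were higher and 7 lower (median -0.24). Of all genes, 18.2% were called higher and 17.6% lower in these lines.

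The XO lines were compared with XX Rnf12+/- to ask what changes when the whole X chromosome is lost. Library series, sequencer and single against paired reads differ between them as well, and cannot be told apart from that loss. The paper describes its XO lines as treatment-matched controls that arose during the targeting of X-linked regions. XX Rnf12+/- cells did not share that later targeting, which cannot be told apart from the loss either. In X129OCast the near absence of *Rlim* RNA is a further difference, from XX Rnf12+/- and from XCastO129, that cannot be told apart from the loss. *Asns* was lower and *Phgdh* higher in both XO lines, and both comparisons used the same XX Rnf12+/- libraries. In XCastO129, 4 of 9 genes passed where 38.2% of all genes did, 17.4% higher and 20.8% lower. *Asns* was at 361 and 236 TPM against 412 and 775 TPM in XX Rnf12+/-, a log2 difference of -0.90 (SE 0.25, adjusted p = 0.00830). *Atf4* was at 425 and 370 TPM against 529 and 585 TPM, a log2 difference of -0.39 (SE 0.12, adjusted p = 0.0144). For *Asns* and *Atf4* no XO library reached those of XX Rnf12+/-.

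*Chac1* was at 20.9 and 14.0 TPM in XCastO129 against 27.5 and 59.8 TPM, a log2 difference of -1.23 (SE 0.38, adjusted p = 0.0165). *Phgdh* was at 209 and 172 TPM against 92.0 and 124 TPM, a log2 difference of 0.91 (SE 0.16, adjusted p = 1.53e-04). The calls of *Asns*, *Atf4* and *Chac1* rested on replicate 2 of XX Rnf12+/- and of XCastO129, and were also lost with the replicate number as a block (adjusted p = 0.174, 0.134 and 0.261) and with the compared libraries alone (0.150, 0.0989 and 0.124). Without the former the log2 differences were -0.37, -0.31 and -0.56 and none of these 3 passed, and without the latter they were -0.62, -0.29 and -0.96 and did not pass either. The call of *Phgdh* held in all 4 fits with 1 library left out, with log2 differences from 0.71 to 1.15.

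In X129OCast, 3 of 9 genes passed where 50.3% of all genes did, 23.6% higher and 26.7% lower. *Asns* was at 240 and 202 TPM, a log2 difference of -1.27 (SE 0.25, adjusted p = 3.93e-04), and *Phgdh* at 174 and 149 TPM, a log2 difference of 0.74 (SE 0.16, adjusted p = 7.22e-04). Both calls held in all 4 fits with 1 library left out. *Ddit3* was at 11.4 and 7.65 TPM against 19.0 and 18.5 TPM, a log2 difference of -0.82 (SE 0.23, adjusted p = 0.00658), which lost its call without replicate 2 of X129OCast. Against each other, the XO lines differed in none of the 9 genes in edgeR, where 7.46% of all genes passed and 1 of the 9 genes, *Sesn2*, had an unadjusted p under 0.05.

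Among the lists, the p53 targets were lower in both XO lines, 9 of 13 with 1 higher in XCastO129 (median -0.75) and 11 of 13 with 1 higher in X129OCast (median -1.22). *Trp53inp1* was at -0.76 and -1.78 and *Eda2r* at -1.54 and -2.67. *Eda2r* is X-linked, so that its change includes the loss of a gene copy. The bZIP factors were lower in 7 of 11 and 6 of 11, with *Atf3* at -1.70 and -1.44. Of all genes, 20.8% were called lower in XCastO129 and 26.7% in X129OCast. Of the synthetases 1 of 13 and 4 of 13 were higher and 0 lower (medians 0.06 and 0.20), against 17.4% and 23.6% of all genes called higher. The pluripotency sum was 4210 to 5050 TPM in the XO libraries against 6030 and 6290 TPM in XX Rnf12+/-. The primed epiblast sum was 461 to 849 TPM against 229 and 228 TPM, and neither sum overlapped. In the whole series of 6 the sums were 5370 to 6290 TPM and 228 to 479 TPM, where only the latter overlapped, through Deletion E. Of 7 pluripotency markers 4 were lower in XCastO129 and 5 in X129OCast, and 0 were higher. Of 5 primed epiblast markers 2 and 4 were higher and 0 lower, beside the shares of all genes given above. The part of cell state in the changes of the 10 genes was not tested.

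Within the series of 6 libraries, none of the 9 genes differed in edgeR between XX Rnf12+/- and XX wild type, where 3.18% of all genes passed and 0 of the 9 had an unadjusted p under 0.05. In Deletion E against XX Rnf12+/-, 0 of 9 passed where 0.723% of all genes did, and *Asns* had the largest difference, at -0.92 (SE 0.25, adjusted p = 0.114), with 368 and 282 TPM against 412 and 775 TPM. *Atf4* in Deletion E was at 0.24 (SE 0.12, adjusted p = 0.416). In this series the 2 libraries of XX wild type, and likewise those of XX Rnf12+/-, lay far apart. *Asns* was at 480 and 796 TPM in XX wild type and 412 and 775 TPM in XX Rnf12+/-, *Ddit4* at 165 and 477 TPM and at 97.8 and 311 TPM, and *Psat1* at 335 and 554 TPM and at 281 and 450 TPM. *Trib3* was at 38.5 and 80.9 TPM in XX wild type and at 27.8 and 61.7 TPM in XX Rnf12+/-. For these 4 genes the value in XX Rnf12+/- was below that in XX wild type at both replicate numbers. With the replicate number as a block 0 of 9 passed, and *Ddit4* had a log2 difference of -0.66 (SE 0.29, unadjusted p = 0.0383, adjusted p = 0.311).

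The feeder markers differed between the same libraries in the other direction. They summed to 264 and 95.9 TPM in XX wild type, 319 and 98.5 TPM in XX Rnf12+/- and 223 and 335 TPM in Deletion E, and in the XO lines to 115 and 215 TPM and to 97.2 and 155 TPM. Over all 30 libraries, centred within series, Pearson's r of the feeder sum with the mean of the 9 genes was -0.35, and over the 20 libraries of the large series it was 0.08. These are descriptions over libraries that share lines and series, and the part of feeder RNA or of the state of the culture in the levels of the 10 genes was not tested.

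**Figure D4:**
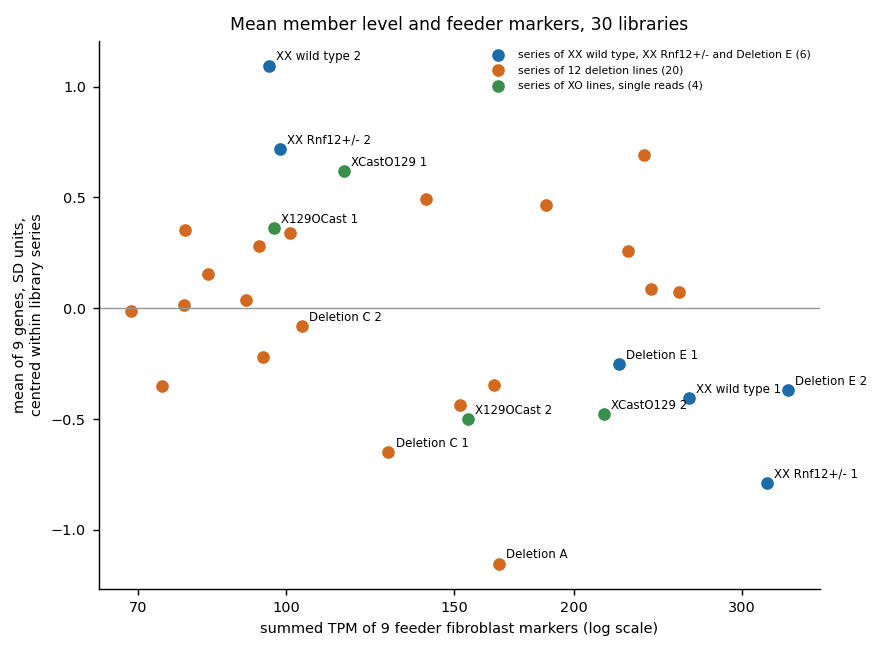
Mean of the 9 tested genes per library in SD units, centred within its series (vertical axis), against the summed TPM of 9 feeder fibroblast markers (horizontal axis, log scale), coloured by library series. Replicate 2 of XX wild type and of XX Rnf12+/- sit at the top with feeder sums of 95.9 and 98.5 TPM, their other replicates sit below 0 with 264 and 319 TPM, and the 20 libraries of the large series show no such order (r = 0.08).

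The 12 lines of the series of 20 were also compared with XX Rnf12+/-, which belongs to another library series, so that series and deletion cannot be told apart. The cassette and the Geneticin selection of the deletion lines are not shared by XX Rnf12+/- and cannot be told apart from the deletion either. Deletions I-TEL and J also came from the second founder. Of 108 pairs 16 passed, 13 higher and 3 lower, where 19.5% of all gene and line pairs passed. *Ddit4* made 7 of the 16 calls, higher in Deletions A, AB, B, C-G, D, I-TEL and J with log2 differences from 1.37 to 2.04. Its levels were 97.8 and 311 TPM in XX Rnf12+/- and 380 TPM or more in each of the 18 libraries outside Deletion C. In Deletion C the log2 difference of *Ddit4* was -0.12 (adjusted p = 0.850), and against XX wild type, at 165 and 477 TPM, 6 of the 7 calls were lost and that in Deletion D held. Without replicate 1 of XX Rnf12+/- the same 6 calls were lost and the 7 log2 differences of *Ddit4* were 0.76 to 1.44, and the call in Deletion C-G was lost in 11 of 18 fits with 1 library left out. *Sesn2* was higher in Deletion C (1.03, adjusted p = 4.82e-05) and lower in Deletion A (-0.75, adjusted p = 0.00630), as among the lines themselves. *Atf4* was higher in Deletion C (0.38, adjusted p = 0.0174) and lower in Deletion C-G (-0.48, adjusted p = 0.0413). *Ddit3* was higher in Deletions D and I-TEL, *Phgdh* in Deletions B and D, and *Chac1* was lower in Deletion A. *Asns*, *Psat1* and *Trib3* passed in no line.

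*Eif2s3x* is the X-linked gene of the third subunit of eIF2, the factor through which the response starts, and it lies at chrX:94188707-94212862. In both clones of Deletion F 0 of 294 and 0 of 216 allelic reads came from the 129 allele, and in Deletion C-G 1 of 237, against 11.5 to 19.8% in the other libraries of the series. Its level was 109 and 87.2 TPM in Deletion F and 101 TPM in Deletion C-G, against 159 to 207 TPM in the other libraries of the series. The log2 difference from the other lines was -0.78 (SE 0.078, adjusted p = 2.68e-05) in Deletion F and -0.79 (SE 0.11, adjusted p = 2.82e-04) in Deletion C-G. None of the 9 stress response genes passed in either line. In Deletion F, where 3.16% of all genes were called higher and 2.08% lower, the median of the 9 was 0.25 on the log2 scale against 0.02 for all genes, with *Atf4* at 0.25 (adjusted p = 0.104), *Sesn2* at 0.31 (0.0937) and *Chac1* at 0.61 (0.194). Of the synthetases 3 of 13 were higher in Deletion F, with *Aars* at 0.44 (adjusted p = 0.0334), and 3 of 11 carriers, with *Slc7a5* at 0.47 (0.0140), and *Ppp1r15b* was at 0.39 (0.0113). *Aars*, *Slc7a5* and *Gpt2* are on chromosome 8, whose genes had a median log2 difference of 0.11 in Deletion F. The clones differed there, with *Aars* at 252 and 348 TPM and a share of 129 reads of 49.4 and 32.3% for *Aars* and of 53.1 and 34.2% for *Gpt2*. In the XO lines *Eif2s3x* was at 140 and 147 TPM and at 151 and 159 TPM, and its log2 difference from XX Rnf12+/- did not pass in either (-0.24 and -0.07).

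How alike the genes were over the libraries was described by Pearson's r of log2 CPM, centred within each library series. The 36 pairs ranged from -0.70 (*Sesn2* and *Ddit4*) to 0.76 (*Psat1* and *Ddit4*) with a median of 0.16, and 9 pairs were above 0.5 and 13 below 0. *Atf4* went with *Sesn2* (0.69) and *Chac1* (0.68) and against *Phgdh* (-0.54), *Ddit4* (-0.47) and *Psat1* (-0.39). *Trib3*, *Asns* and *Psat1* had r of 0.60 to 0.70 with each other, and *Psat1*, *Ddit4* and *Phgdh* 0.60 to 0.76. *Ddit3* had no r above 0.32 with any other. Without both clones of Deletion C the lowest r was -0.44 (*Sesn2* and *Ddit4*) and the highest 0.81 (*Trib3* and *Chac1*), with a median of 0.24 and 7 pairs below 0, and that of *Sesn2* and *Psat1* went from -0.38 to 0.10. *Atf4* stayed with *Chac1* (0.68) and *Sesn2* (0.55). The r of each gene with the mean of the others was 0.76 for *Trib3*, 0.56 for *Asns*, 0.54 for *Chac1* and 0.53 for *Psat1*, and 0.04 for *Atf4* and -0.08 for *Sesn2*.

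**Figure D5:**
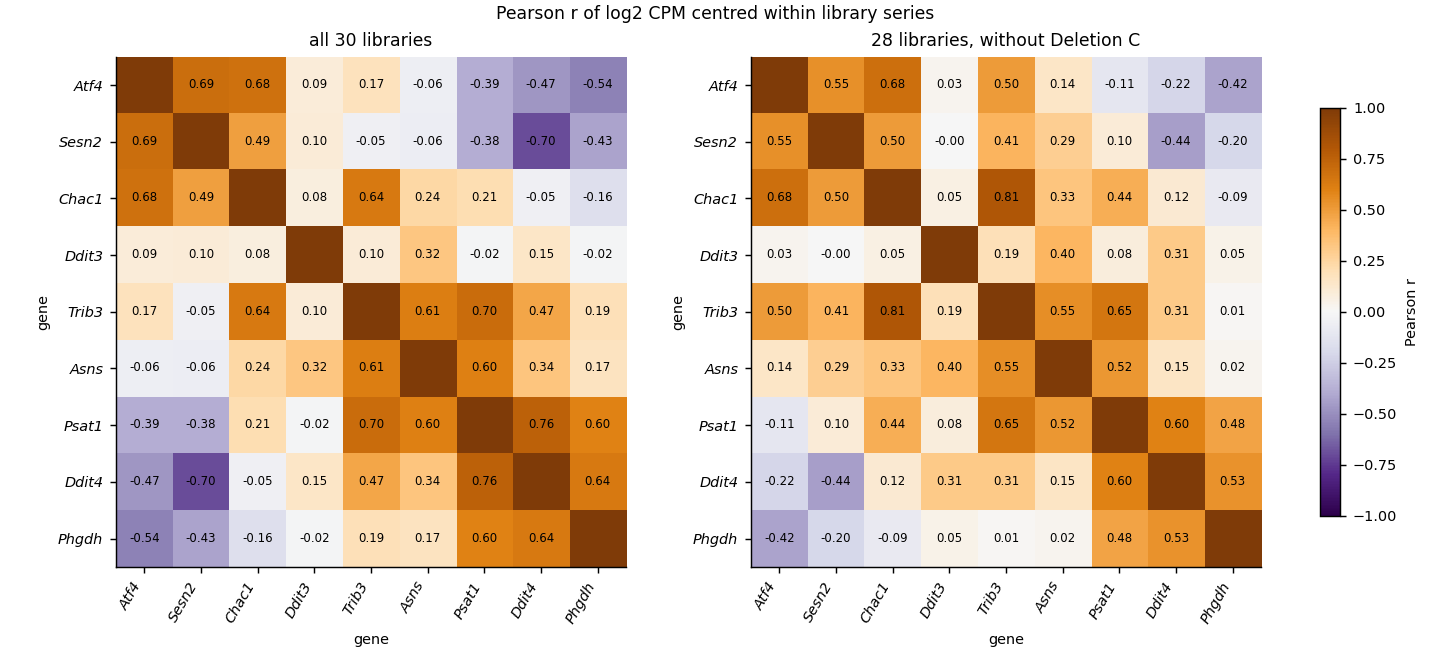
Pearson's r (colour scale from -1 to 1, values printed) between the 9 tested genes over all 30 libraries (left) and over 28 libraries without Deletion C (right), after centring log2 CPM within library series. *Atf4*, *Sesn2* and *Chac1* go together in both panels (0.49 to 0.69 on the left), and the negative values of *Sesn2* with *Ddit4* and *Psat1* shrink or turn without Deletion C.

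Of all other tested genes, the 10 with the pattern most like the mean of the 9 genes over the 30 libraries were *Eif4ebp1* (r = 0.75), *Aars* (0.73), *Nars* (0.72), *Cars* (0.71), *Nsun6* (0.71), *Cops7a* (0.70), *Yars* (0.69), *Gpt2* (0.69), *Mthfd2* (0.69) and *Iars* (0.68). Of these 10, 5 encode aminoacyl-tRNA synthetases, *Eif4ebp1* the translation inhibitor 4E-BP1, and *Gpt2* and *Mthfd2* enzymes of amino acid and folate metabolism. The 13 synthetases had a median r of 0.62 (0.28 to 0.73) and the 11 carriers of 0.51, against 0.02 for all other genes tested. The p53 targets had a median r of -0.32 and all 13 were below 0 (-0.52 to -0.11). With the 20 libraries of the large series alone, *Eif4ebp1* was the only one of the 10 still among the first 10, at 0.77. *Eif4ebp1*, *Aars* and *Gpt2* lie on chromosome 8, whose genes had a median log2 difference of 0.39 in the lines of the second founder. In those libraries their shares of 129 reads were 60.8 to 65.8%, 62.5 to 65.5% and 71.0 to 75.0%. For *Eif4ebp1* the share was 47.5 to 53.2% in the other libraries. The part of chromosome 8 in these r was not tested. All of these libraries share lines, series and depth, and no p was computed.

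Reads could be split by allele for 7 of the 10 genes, with at least 20 allelic reads in each of the 30 libraries. Both alleles were read throughout. The share of 129 reads was 32.9 to 48.5% for *Atf4*, 42.3 to 50.5% for *Sesn2*, 42.0 to 49.5% for *Psat1*, 39.0 to 53.4% for *Asns*, 41.8 to 63.0% for *Ddit4* and 31.5 to 54.3% for *Trib3*. For *Phgdh* it was 56.4 to 75.1%, above 50% in all 30 libraries and lowest in X129OCast. The share of 129 reads was under 50% in every library for *Atf4* and *Psat1*. *Ddit3* and *Slc7a11* had too few allelic reads in all libraries (at most 11 and 8), and *Chac1* in 28 of 30.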

How the data were processed

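After trimming and alignment to mm10, the authors split the reads by strain polymorphisms and deposited whole-number counts per gene for all reads, 129 reads and Cast reads, 90 columns for 30 libraries. The labels name Trim Galore 0.6.7, HISAT2 2.2.1, SAMtools 1.10 and HTSeq 0.12.4, while the study's methods name featureCounts for the counting. Positions and exon lengths came from GENCODE M21, which matched 55240 of 55421 genes, and the 181 others held at most 0.00401% of a library. TPM were computed from counts and exon lengths.

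Groups followed the labels. Tests used edgeR 4.0.16 in R 4.3.3 (quasi-likelihood, all 30 libraries, 1 term per group, TMM factors from autosomal genes, mean CPM of at least 1, Benjamini-Hochberg threshold 0.05). Intervals and depth cover counting error only. On simulated data for Deletion C, 32 of 100 genes were called where the set log2 change was 0.5, 78 of 100 where it was 1 and 4 of 14528 where it was 0, and for Deletion A 12, 53 and 5. The simulation changed few genes and the lines were otherwise alike, while in the real data 37.6% of all genes passed in Deletion C. These shares therefore need not hold for the real comparison. DESeq2 1.42.0 was an alternative. Correlations used log2 CPM with a prior count of 2.

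Besides the 10 genes, the text names the 2 genes of each list called in most of the 12 lines, the 10 genes most like the mean, *Eif2s3x* and *Rlim*, the last chosen as the check of the labels. The 10 genes and the lists were chosen with earlier results of these data known. Alternatives covered the tool, normalization, filter, libraries, reference, replicate block and each replicate left out.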

Additional observations from a re-analysis of the deposited data

Results flagged for a closer look

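The level of 6 genes differed between the 12 deletion lines of the large series in the F test, which compares the same gene in several lines. The adjusted p was 1.56e-05 for *Sesn2*, 0.00109 for *Atf4*, 0.013 for *Psat1*, 0.0191 for *Chac1*, 0.0209 for *Phgdh* and 0.0357 for *Ddit4*. *Sesn2* and *Atf4* passed in every fit tried, and *Psat1*, *Phgdh* and *Ddit4* did not pass without both Deletion C clones (adjusted p = 0.197, 0.0901 and 0.408), nor, with 1 clone left out, in 2, 3 and 8 of 16 fits, nor did *Chac1* without the Deletion A library (0.110).

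*Sesn2* lay on opposite sides of the mean of XX Rnf12+/- in the XO lines, above it in both libraries of XCastO129 (174 and 140 TPM) and below it in both of X129OCast (125 and 115 TPM). The mean of XX Rnf12+/- was 137 TPM with an SD of 12.3 TPM, and the XCastO129 library at 140 TPM lay within that spread. The ratio of the means, X129OCast over XCastO129, was 0.764. Against XX Rnf12+/- the log2 difference was 0.29 (adjusted p = 0.128) in XCastO129 and -0.04 (adjusted p = 0.841) in X129OCast, and neither passed. The direct comparison of the XO lines gave a log2 difference of -0.33 that did not pass (edgeR, adjusted p = 0.181).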

How the results depend on the processing

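Of the 43 called values of single genes, 324 of 349 repeats under other settings and 544 of 636 with 1 replicate left out kept their call. None of those with a direction reversed, and the 6 values of the F test have no direction. The count of the F test was 6, came to 3 without both Deletion C clones (an alternative added after seeing the data, like the fit without Deletion A and the crossed block) and was 3 to 6 with 1 replicate left out. Over all genes, 54.2% passed the F test and 37.3% without both Deletion C clones. Shares of all genes called are in brackets below. Without a filter on low counts, the pairs called against the other 11 lines went from 10 of 108 to 48 of 120 (10.4% to 5.89%). Those against XX Rnf12+/- went from 16 to 48 (19.5% to 9.78%). The genes called went from 0 to 1 in Deletion E (0.723% to 1.88%) and from 0 to 1 in XX Rnf12+/- (3.18% to 2.73%). They went from 0 to 2 for X129OCast against XCastO129 (7.46% to 4.48%) and from 3 to 6 for X129OCast against XX Rnf12+/- (50.3% to 23.9%). With the compared libraries alone, 25 pairs passed against the other lines, 1 gene in XCastO129 and 3 p53 targets in XCastO129. With XX wild type as reference, 1 gene passed in Deletion E (6.36%). The median r was 0.0504 with the 20 libraries of the large series, and r of *Sesn2* and *Psat1* reversed to 0.0985 without Deletion C. The causes were not tested.

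With 1 replicate left out, the counts ranged from 8 to 14 pairs against the other lines, 1 to 5 genes for the second founder, 0 to 1 for Deletion E and for XX Rnf12+/-, 0 to 0 between the XO lines, 1 to 6 for XCastO129, 2 to 5 for X129OCast, and 8 to 33 pairs against XX Rnf12+/- (8 without its replicate 1 and 33 without its replicate 2). In Deletion C, 7 to 12 synthetases and 2 to 8 amino acid enzymes stayed lower and 5 to 10 p53 targets higher, and 6 to 9 and 11 to 11 p53 targets stayed lower in XCastO129 and X129OCast.

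Samples with the same replicate number did not deviate together throughout (r from -0.28 to 0.71 over 3 pairs, -0.20 to 0.20 over 28 pairs and 0.11 for the XO lines), so the numbers were not taken as pairs, although those of XX wild type and XX Rnf12+/- deviated together (0.71). The replicate block moved XCastO129 from 4 calls to 1 and the pairs against XX Rnf12+/- from 16 to 30, and moved no other count by over 1.5 times. Over all genes the share called went from 38.2% to 34.6% in XCastO129 and from 19.5% to 24.1% for those pairs. With the crossed replicate block for Deletion E 1 gene passed, where 1.44% of all genes did.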
